A study of Mus musculus with 24 samples.

Results

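Class I and class II histone deacetylases are encoded by 10 genes in the mouse, Hdac1 to Hdac10, and their promoters were examined for acetylation of histone H3 at lysine 9 (H3K9ac). The genes were taken by name, 4 of class I (Hdac1, Hdac2, Hdac3 and Hdac8), 4 of class IIa (Hdac4, Hdac5, Hdac7 and Hdac9) and 2 of class IIb (Hdac6 and Hdac10), out of 21755 protein-coding genes on chromosomes 1 to 19 and X. H3K9ac had been profiled by ChIPmentation, a chromatin immunoprecipitation in which the sequencing adapters are added by a transposase, in 12 libraries of 4T1 mouse mammary carcinoma cells grown as 3D spheroids for 5 days. The 4 groups held 3 libraries each, namely the scramble control, a CPT1a knockout, the CPT1a knockout with acetate and a KAT2a knockout. CPT1a is the carnitine palmitoyltransferase through which long-chain fatty acids enter mitochondria for oxidation, and KAT2a (also called GCN5) is an acetyltransferase that acetylates H3K9. The labels give 75 µM palmitate for the scramble, CPT1a knockout and KAT2a knockout libraries and 5 mM acetate for the acetate libraries, whose palmitate they do not state. All lines carried inducible Cas9 and lentiviral guides, the control guide being aimed at EGFP and each gene at 2 of its exons, and the guide behind each library is not labelled. The study's methods speak in general of biological replicates, but nothing ties the libraries of a group to separate cultures, so p-values measure the spread between these libraries, which may be technical.

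Histone deacetylases remove acetyl groups from lysines of histones and of other proteins. Hdac1, Hdac2 and Hdac3 are nuclear enzymes that work inside corepressor complexes (NuRD, Sin3 and CoREST for Hdac1 and Hdac2, NCoR/SMRT for Hdac3), whereas Hdac8 acts without such a complex. The class IIa enzymes have little catalytic activity of their own, bind MEF2 transcription factors, and are held in the cytoplasm by 14-3-3 proteins once salt-inducible, protein kinase D or CaM kinases have phosphorylated them. Hdac6 is a cytoplasmic deacetylase of tubulin, and Hdac10 deacetylates polyamines. H3K9ac marks active promoters and is written by acetyltransferases, KAT2a among them, and erased by class I enzymes.

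A promoter was taken as 1 kb to either side of any annotated transcription start site (TSS). In each library the strongest promoter peak of a gene was the one with the highest deposited fold enrichment, the ratio of the summit signal to the local background of that library. This ratio was not scaled between libraries, so it was turned into a rank percentile, from near 0 for the weakest to 100 for the strongest, among the 10777 genes that had a promoter peak in all 12 libraries. The scramble libraries held 29153 to 34330 peaks and the other 9 libraries 16201 to 24594, with median widths of 585 to 686 bp and of 816 to 1147 bp. Peak number and width therefore separated scramble from every other library, and their part in any difference from scramble cannot be told apart from that of the group. Promoters of 6 of 7 epithelial markers had a peak in all 12 libraries, Krt14 having one in the 3 KAT2a knockout libraries, and none of 5 leukocyte, 3 endothelial, 2 hepatocyte or 2 neuron markers had one in any library. Promoters of Cpt1a and Kat2a were marked in all 12 libraries, a measure that does not test the edits of their exons.

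Of the 10 genes, 9 had a promoter peak in all 12 libraries and Hdac9 had none in any. Among all protein-coding genes the share with a promoter peak in every library was 49.5%, and 45.1% had none in any library. The 4 promoter sequences that follow contrast the promoter with the highest median rank (Hdac2) with the lowest of those marked in all 12 libraries (Hdac8). They also contrast a marked and an unmarked promoter of one gene (Hdac7, chosen after its calls were seen). They are RefSeq sequences of GRCm38.p6, the assembly behind mm10, printed 5′ to 3′ and upstream of the TSS only, and capitals mark matches to the motifs named after them.
Hdac2, chr10:36974294-36974543, + strand: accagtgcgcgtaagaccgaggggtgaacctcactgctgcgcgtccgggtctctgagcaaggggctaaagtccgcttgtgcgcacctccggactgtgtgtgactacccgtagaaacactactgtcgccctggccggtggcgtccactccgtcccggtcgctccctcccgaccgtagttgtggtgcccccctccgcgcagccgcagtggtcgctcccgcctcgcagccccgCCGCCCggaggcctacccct
Hdac8, chrX:102505360-102505408, - strand: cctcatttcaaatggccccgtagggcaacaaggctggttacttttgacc
Hdac7, marked, chr15:97831768-97832017, - strand: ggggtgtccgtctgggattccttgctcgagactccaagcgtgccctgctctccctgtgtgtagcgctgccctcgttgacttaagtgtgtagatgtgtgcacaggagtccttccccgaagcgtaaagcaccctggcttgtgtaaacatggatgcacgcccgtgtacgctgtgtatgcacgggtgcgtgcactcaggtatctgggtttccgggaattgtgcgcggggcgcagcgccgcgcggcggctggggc
Hdac7, unmarked, chr15:97844503-97844752, - strand: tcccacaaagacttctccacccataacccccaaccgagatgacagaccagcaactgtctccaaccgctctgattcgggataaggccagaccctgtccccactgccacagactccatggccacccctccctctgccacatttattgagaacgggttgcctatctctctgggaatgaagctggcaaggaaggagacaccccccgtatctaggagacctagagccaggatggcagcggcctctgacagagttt

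CG dinucleotides, the sites of DNA methylation that are dense in CpG islands, were counted in these promoters as a description, with no test. Counted over 300 bases, from 250 before the TSS to 50 after it, the median of 32817 promoters was 7. Windows that carried a peak in all 12 libraries held 36 in Hdac2, 32 in Hdac4, 18 in Hdac5, 20 in Hdac6 and 31 and 35 in 2 overlapping windows of Hdac7, whereas that of Hdac8 held 6. The Hdac7 window marked in 8 libraries held 5. The unmarked windows held 6 at the outermost Hdac7 promoter, as many as the marked Hdac8 promoter, and 0 and 3 at the Hdac9 promoters of the sequence table. These counts cover the 7 of 10 genes with an entry in the sequence table, which has none for Hdac1, Hdac3 and Hdac10. On either strand GGGCGG, the GC box bound by Sp factors, was found in Hdac2, Hdac4, Hdac5, Hdac6 and one of the overlapping Hdac7 windows, against 35.6% of all promoters. ATTGG, the reverse complement of the CCAAT box, was found in Hdac4, Hdac5, Hdac6 and Hdac8 (37.4% of all). The E-box CACGTG was found in Hdac5 alone (7.15%), and TATAAA in Hdac8 and in one Hdac9 window (13.6%). None of these windows held the CRE letters TGACGTCA (1.79% of all). In the printed sequences the only match was the GC box of Hdac2. The printed Hdac8 stretch has 49 bases against 250 in the others, and its ATTGG and TATAAA matches came from the 300-base window.

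Several genes had more than one annotated promoter, and the mark lay at some of them (mm10 coordinates, GENCODE vM21). Hdac4 carried its peak at the start sites at chr1:92180297-92180341 in 12 of 12 libraries and at no other of its 8 groups of start sites in any library, including the outermost at 92195694 to 92195699. Hdac7 had 4 transcripts of the consensus coding set starting at chr15:97844164-97844502, where no library had a peak, and 3 starting at 97831469 to 97831767, where all 12 did. A further start site of Hdac7 at 97814863 lay within 1 kb of a peak in 8 libraries, with fold enrichments of 3.54 to 7.71 that put it at percentiles of 0.121 to 1.61. Hdac5 had peaks at 2 promoters in every library. The outer one, at chr11:102230124-102230166, stood at percentiles of 8.41 to 47.0 and the inner one, at 102218928 to 102218929, at 2.12 to 27.0. The inner peak was the stronger of the pair in scramble 2 and in replicate 3 of the acetate libraries, so the Hdac5 rank refers to another promoter there.

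**Figure D1:**
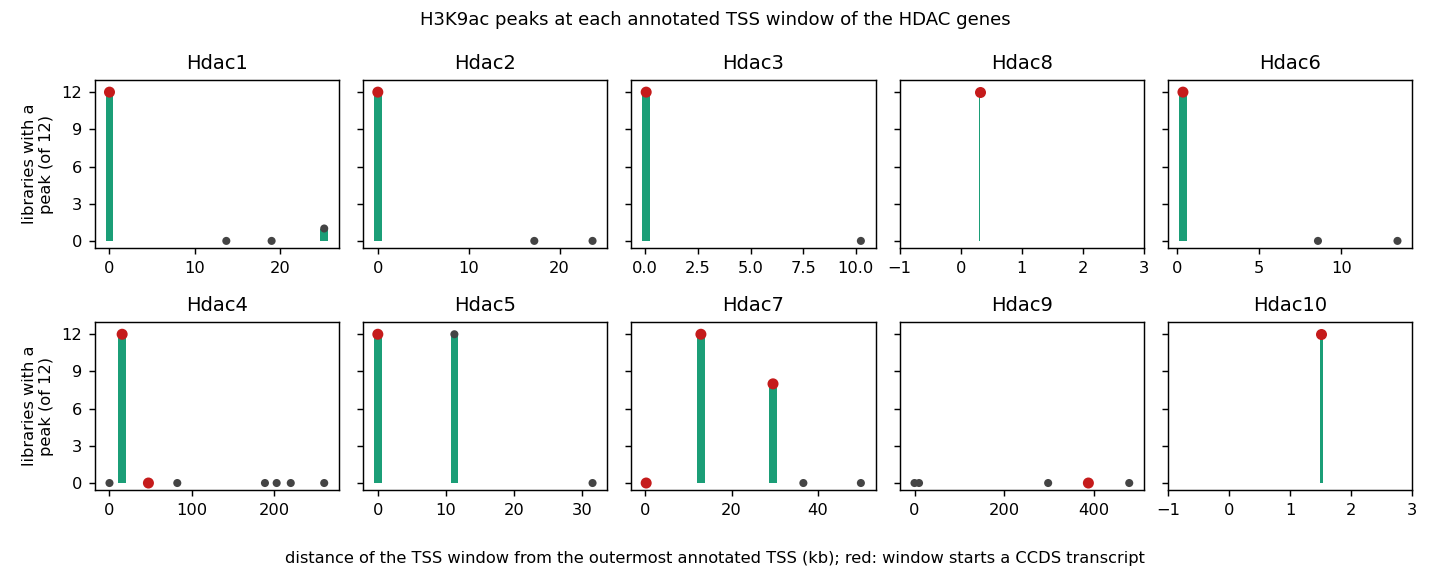
Number of libraries of 12 (y axis) with an H3K9ac peak within 1 kb of each group of annotated start sites, plotted by its distance in kb from the gene's outermost start site (x axis); red points are groups that start a consensus coding transcript. Hdac4 and Hdac7 have no peak at their outermost start sites, Hdac5 has 2 promoters marked in all 12 libraries, and Hdac9 has none.

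Hdac9, a class IIa enzyme of muscle and neurons, had no peak at any of its 7 start sites, and the peak nearest to one lay 128421 to 129315 bp away. Within the gene a single region, chr12:34074955-34076267, had a peak in all 12 libraries. It lay in an intron, and the nearest start site of another protein-coding gene was that of Twist1, 117284 bp away, whose own promoter was marked in all 12 libraries. Twist1 encodes a transcription factor of epithelial-mesenchymal transition. Fold enrichment in this region was 12.2, 10.8 and 14.5 in the scramble libraries and 6.0 to 10.5 in the other 9, values that were not scaled between libraries. Other genes had marked regions inside them as well. An intron of Hdac5 (chr11:102214950-102216680) and a region of Hdac7 that was intronic but for 57 bp of one exon (chr15:97823808-97827514) were called in all 12 libraries, and a pair of further Hdac7 introns in 11 and 10.

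By median rank over the 12 libraries the order was Hdac2 (61.0), Hdac3 (58.3), Hdac1 (57.2), Hdac4 (55.4), Hdac7 (47.0), Hdac10 (27.7), Hdac5 (24.6), Hdac6 (18.7) and Hdac8 (5.69). The ranges of all 8 neighbouring pairs overlapped. Hdac6 nevertheless stood above Hdac8 in 12 of 12 libraries, whereas the other neighbours changed places, Hdac2 standing above Hdac3 in 6 of 12 and Hdac10 above Hdac5 in 7. The class I promoters of the complex-bound enzymes were in the upper part of the list and that of Hdac8 at its end. The class IIa promoter of Hdac4 was not set apart from them, since Hdac1 stood above it in 5 of 12 libraries.

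**Figure D2:**
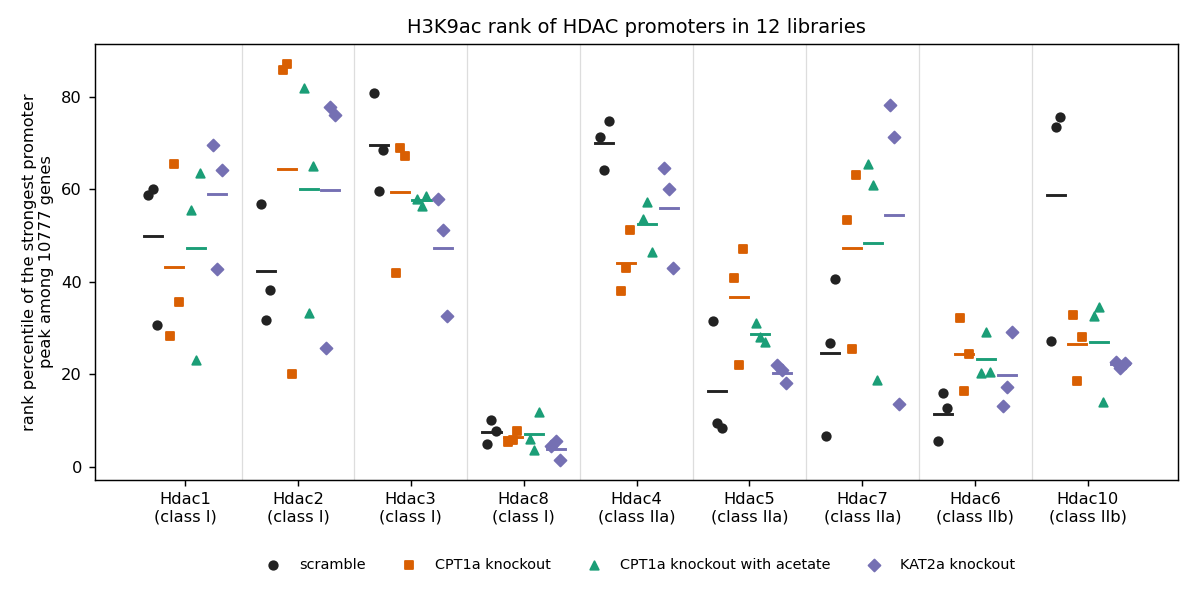
Rank percentile of the strongest promoter peak among 10777 genes (y axis) for each HDAC gene with a promoter peak, 1 point per library and a bar at the mean of each group of 3. Hdac8 stays between 1.49 and 11.9 in every library, Hdac2 and Hdac7 spread widely within groups, and 2 of the 3 Hdac10 scramble libraries lie above all other Hdac10 values.

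Among class I genes, Hdac1 ranked at 58.8, 60.1 and 30.5 in scramble, 28.2, 65.4 and 35.7 in the CPT1a knockout, 55.5, 23.1 and 63.5 with acetate and 69.6, 42.8 and 64.3 in the KAT2a knockout. High and low libraries occurred in each group, and the means of the other 9 libraries (49.8 ± 17.6, SD, n = 9) and of scramble (49.8 ± 16.7, n = 3) were alike. Its relative Hdac2 ranked at 56.9, 31.7 and 38.3 in scramble, 85.8, 87.2 and 20.0 in the CPT1a knockout, 82.0, 33.2 and 65.0 with acetate and 25.6, 77.8 and 76.0 in the KAT2a knockout. Each knockout group held 1 library far below its other two, and the pooled within-group SD of 28.0 was the largest of the 9 genes. Hdac3, the NCoR/SMRT enzyme, ranked at 80.9, 59.6 and 68.6 in scramble, 42.0, 69.0 and 67.2 in the CPT1a knockout, 57.8, 56.4 and 58.6 with acetate and 58.0, 51.2 and 32.6 in the KAT2a knockout. Its peak covered the start site of the divergent gene Rell2, 63 bp from that of Hdac3, in 10 of 12 libraries, so the rank belongs to a shared promoter. Hdac8 ranked at 4.92, 10.1 and 7.71 in scramble, 5.35, 5.81 and 7.83 in the CPT1a knockout, 5.90, 3.53 and 11.9 with acetate and 4.45, 5.56 and 1.49 in the KAT2a knockout. It was low in every library, and the groups overlapped.

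Among class IIa genes, Hdac4 ranked at 71.4, 64.2 and 74.8 in scramble, 38.0, 43.0 and 51.2 in the CPT1a knockout, 53.5, 57.3 and 46.4 with acetate and 64.6, 60.0 and 43.0 in the KAT2a knockout. All CPT1a knockout and acetate libraries lay below all scramble libraries, and 1 KAT2a knockout library lay above the lowest of them. Hdac5 ranked at 31.5, 9.55 and 8.41 in scramble, 40.8, 22.1 and 47.0 in the CPT1a knockout, 31.2, 28.1 and 27.0 with acetate and 21.9, 20.9 and 18.2 in the KAT2a knockout. Scramble 1 lay among the other groups and the other two scramble libraries below them. The third gene of the class, Hdac7, ranked at 6.65, 26.8 and 40.6 in scramble, 53.5, 25.5 and 63.0 in the CPT1a knockout, 65.6, 60.9 and 18.7 with acetate and 78.2, 71.4 and 13.6 in the KAT2a knockout. The 3 knockout groups each held 1 low library inside the scramble range.

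For class IIb, the tubulin deacetylase gene Hdac6 ranked at 5.54, 16.0 and 12.6 in scramble, 32.1, 16.4 and 24.3 in the CPT1a knockout, 20.3, 29.1 and 20.4 with acetate and 13.2, 17.2 and 29.1 in the KAT2a knockout. The CPT1a knockout and acetate libraries were all above scramble, and 1 KAT2a knockout library was within it. Hdac10 ranked at 27.2, 73.5 and 75.6 in scramble, 32.8, 18.5 and 28.1 in the CPT1a knockout, 32.7, 34.5 and 13.9 with acetate and 22.7, 21.4 and 22.5 in the KAT2a knockout. Scramble 2 and 3 were far above all other libraries, and scramble 1 lay among them.

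The comparison of each knockout with scramble asks whether these promoters changed their standing among all genes without CPT1a or KAT2a. A gain or loss of the mark shared by all promoters would leave the ranks as they were, so it was not tested. None of the 9 genes passed limma's test at an adjusted p under 0.05 in the CPT1a knockout, where 10.0% of all 10777 genes did, or in the KAT2a knockout, where 4.41% did. Before adjustment, p was under 0.05 for Hdac4 (difference -26.0 percentile points, SE 9.90, adjusted p = 0.108), Hdac5 (20.2, SE 7.29, adjusted p = 0.0925), Hdac6 (12.9, SE 5.47, adjusted p = 0.142) and Hdac10 (-32.3, SE 11.1, adjusted p = 0.0776) in the CPT1a knockout. In the KAT2a knockout it was so for Hdac10 alone (-36.6, SE 11.1, adjusted p = 0.0768). With peaks ranked by their -log10 p, 2 members passed in the CPT1a knockout and 1 in the KAT2a knockout. Leaving out scramble 1 gave the same counts, and leaving out replicate 2 of the CPT1a knockout gave 1 in the CPT1a knockout. The shares of all genes above belong to the main fit, so these counts cannot be read against them.

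Whether acetate altered the rank of these promoters in the CPT1a knockout was read from the acetate libraries against the knockout without it. The test called 0 of the 9 members, and 0.0464% of all genes. Differences ran from -7.87 points for Hdac5 (SE 7.29, adjusted p = 0.817) to 8.33 for Hdac4 (SE 9.90, adjusted p = 0.864), and none of the 9 had an unadjusted p under 0.05. Against scramble the acetate libraries also showed no member past the threshold, with 5.56% of all genes called. There Hdac10 (-31.7, SE 11.1, adjusted p = 0.107) and Hdac6 (11.9, SE 5.47, adjusted p = 0.218) had an unadjusted p under 0.05. Leaving out scramble 1, or ranking by -log10 p, gave 1 called member, counts for which the 5.56% of the main fit is no background. These comparisons share the scramble libraries.

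**Figure D3:**
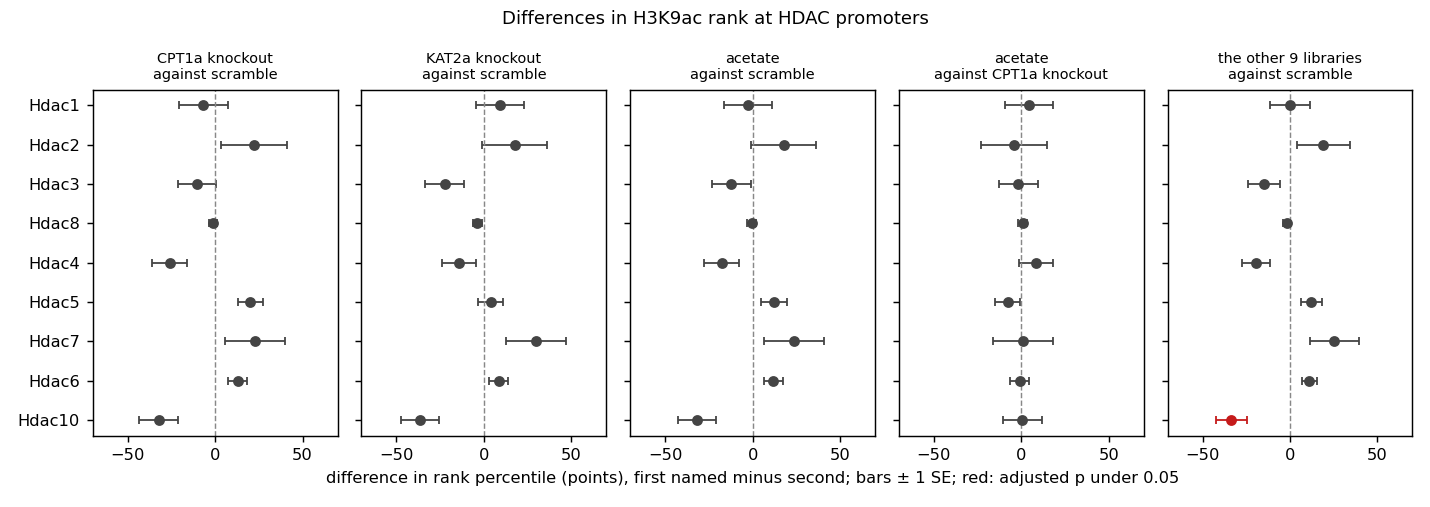
Difference in rank percentile (x axis, points, first named group minus the second) with ± 1 SE from limma for each HDAC gene in 5 comparisons; red marks an adjusted p under 0.05. The single red point is Hdac10 in the other 9 libraries against scramble, at -33.5 points.

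With the mean of the 3 other groups set against scramble, 1 of the 9 genes was called, Hdac10, against 11.6% of all genes (4.92% higher and 6.69% lower). Hdac10, the polyamine deacetylase gene, fell from 58.8 ± 27.4 (SD, n = 3) to 25.2 ± 7.14 (n = 9), a difference of -33.5 points (SE 9.03, limma adjusted p = 0.0267). The call rested on scramble 2 and 3, since the difference was -26.1 (adjusted p = 0.123) without scramble 2 and -25.0 (adjusted p = 0.148) without scramble 3. It was also lost with the number of peaks as a covariate (-55.0, adjusted p = 0.268). That number separates scramble from all other libraries, so the fit cannot part it from the group. An exact permutation test gave a two-sided p of 0.0227 for Hdac10 (adjusted p = 0.124), where the smallest p that 220 assignments allow is 0.00455, 910 genes reached it with an adjusted p of 0.0538, and no gene could therefore pass (2685 had an unadjusted p under 0.05). Hdac4 (-19.3, SE 8.08, adjusted p = 0.130) and Hdac6 (11.1, SE 4.47, adjusted p = 0.116) were not called. With peaks ranked by their -log10 p both were (Hdac4 -22.4, adjusted p = 0.0126, and Hdac6 8.02, adjusted p = 0.0489), beside Hdac10 (-40.7, adjusted p = 0.000201). The 11.6% of all genes belongs to the fold-enrichment ranking, not to this one. Hdac8, not called in the main fit, was called with the opposite sign once the GC trend was removed. The median difference of the 9 members was -0.03 points and that of all genes 0.04, with 4 members above 0 and 5 below. The genes whose 12 ranks were nearest to those of Hdac10 were Gcnt2 (Euclidean distance 33.7), Vps11 (34.6) and Gtse1 (37.7).

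Peak width was read for the same peaks. Hdac7 had the widest promoter peaks, 2462 to 4656 bp with a median of 3774, followed by Hdac4 with a median of 2913 bp, and Hdac6 (median 902.5 bp) and Hdac8 (946.5 bp) had the narrowest. None of the 9 members was called for width in the other 9 libraries against scramble, where 25.6% of all genes were, most of them narrower (22.9%). The widths of scramble and of the other libraries overlapped in all 9 members, whereas they did not in 24.0% of all genes. Hdac2 measured 2513 ± 794 bp in scramble (SD, n = 3) and 1775 ± 217 bp in the other 9 (log2 difference -0.46, SE 0.18, adjusted p = 0.0844), and Hdac10 3173 ± 591 bp and 2436 ± 381 bp (-0.38, SE 0.16, adjusted p = 0.102). With peak number as a covariate the Hdac2 width difference changed sign. Median log2 differences were -0.02 over the members and -0.27 over all genes. When all promoter peaks of a gene were summed, Hdac2 and Hdac10 passed (2 members). When peaks within 500 bp were merged, Hdac2, Hdac6, Hdac7 and Hdac10 did (4 members). The 25.6% of all genes belongs to the strongest single peaks, so these counts have no background beside them.

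**Figure D4:**
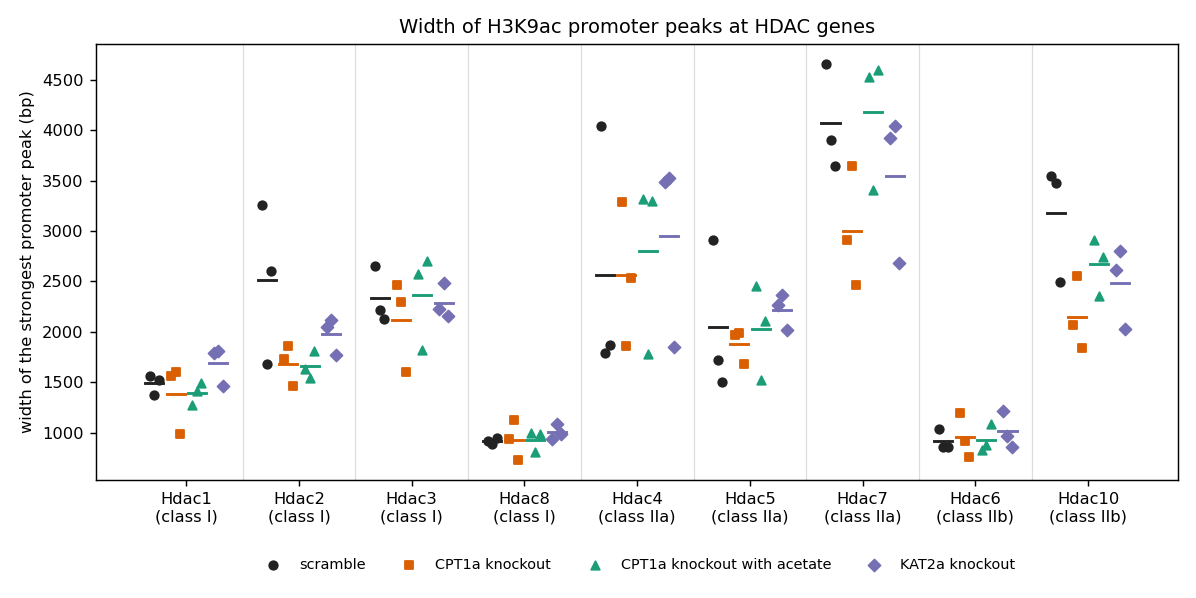
Width in bp of the strongest promoter peak (y axis) for each HDAC gene, 1 point per library and a bar at the mean of each group of 3. Hdac7 and Hdac4 have the widest peaks by median, up to 4656 bp at Hdac7, and Hdac6 and Hdac8 stay between 734 and 1220 bp.

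The position of the summit within the peak separated scramble from the other libraries at some of these promoters, a measure added after the data were seen. At Hdac2 the summit lay 892, 890 and 1110 bp downstream of the nearest TSS in scramble and 193 to 364 bp downstream in the other 9 libraries. The Hdac3 summit lay 514 to 731 bp downstream in scramble and 162 to 229 bp in the others. At Hdac10 it was upstream, by 671 to 758 bp in scramble and by 226 to 527 bp in the others. In these 3 genes the groups did not overlap, as in 39.3% of all genes. On log2 of the distance plus 10 bp, limma called 4 of the 9 members nearer to the TSS in the other 9 libraries, against 53.4% of all genes nearer and 55.9% called in either direction, so the members' count was no higher than the background. They were Hdac2 (log2 difference -1.87, SE 0.18, adjusted p = 2.87e-05), Hdac3 (-1.53, SE 0.16, adjusted p = 4.07e-05), Hdac10 (-1.12, SE 0.26, adjusted p = 0.00521) and Hdac5 (-0.73, SE 0.21, adjusted p = 0.0149). With the number of peaks as a covariate Hdac2 (adjusted p = 0.0204), Hdac3 (0.00592), Hdac5 (0.0407) and Hdac10 (0.0474) were called, and 9.05% of all genes. That covariate cannot be parted from the group, so these calls settle nothing about peak number. Hdac5 was lost without scramble 2 (-0.43, adjusted p = 0.0742), the library whose strongest peak was at the inner promoter. Hdac6 and Hdac8 kept their summits within 174 bp of a TSS in every library. Over all genes the median distance was 478 to 527 bp in the scramble libraries and 261 to 316 bp in the others.

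**Figure D5:**
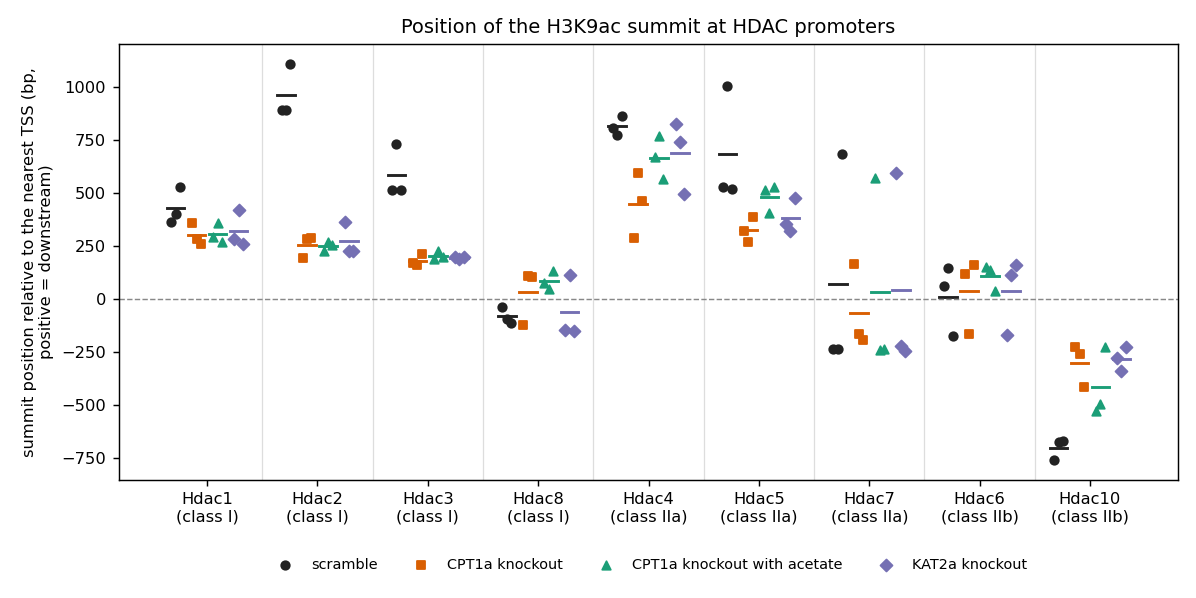
Position of the summit of the strongest promoter peak relative to the nearest TSS (y axis, bp, positive downstream) for each HDAC gene, 1 point per library and a bar at the mean of each group of 3. Scramble points lie farthest from the TSS, with no overlap, at Hdac2, Hdac3 and Hdac10.

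Genes that work with these enzymes were taken from a list of 63, covering Hdac11 (the class IV deacetylase), subunits of NuRD, CoREST, Sin3, NCoR/SMRT, MiDAC and MIER complexes, MEF2 factors, the kinases of class IIa and 14-3-3 proteins. Of the 59 that could be tested, 3 rose and 2 fell in rank in the CPT1a knockout (10.0% of all genes called), 1 rose in the KAT2a knockout (4.41% of all), and 3 rose and 1 fell with acetate against scramble (5.56% of all). In the other 9 libraries against scramble 5 rose and 2 fell, against 11.6% of all genes called, with a median difference of 5.40 points over the list and 0.04 over all genes. In none of these comparisons did the share of the list called stand clear of that of all genes. The largest rises were those of the salt-inducible kinase genes Sik2 (from 28.8 to 78.7, difference 49.9, SE 7.61, adjusted p = 0.00139) and Sik1 (38.6, SE 11.7, adjusted p = 0.0446) and of the NuRD subunit gene Mta3 (35.9, SE 9.95, adjusted p = 0.0298). The falls were those of the protein kinase D gene Prkd3 (-46.6, SE 11.6, adjusted p = 0.0183) and of Mier1 (-37.7, SE 8.50, adjusted p = 0.0113), which encodes a scaffold for Hdac1 and Hdac2. Sik2 passed in all 3 comparisons of a group with scramble.

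Hdac11 ranked low, at 5.97 ± 3.51 in scramble (SD, n = 3) and 9.60 ± 5.42 in the other 9 libraries (difference 3.63, SE 3.20, adjusted p = 0.485). A promoter peak was missing in some libraries for 3 of the listed genes. Camk4, a CaM kinase gene, had one in 0 of 3 scramble libraries and in all 9 others. The share of all genes with such a split is not given here, and scramble differed from the others in peak number and width. Mef2c, which encodes a MEF2 factor, had one in 3 scramble, 2 CPT1a knockout, 1 acetate and 3 KAT2a knockout libraries, and Prkd1 had none in any. With lists cut to equal length Camk4 kept a peak in 7 libraries and Mef2c in 3.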

How the data were processed

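H3K9ac peak lists of 12 ChIPmentation libraries (4T1 spheroids, 4 groups of 3) were analysed; 12 input samples were not analysed here. The authors aligned reads (BWA in their methods, Bowtie2 in the submitters' processing notes, both without a version) to mm10 and called peaks in each library with MACS2, without pooling. The deposited lists give a position, a score, the fold enrichment (ratio of summit signal to local background) and the -log10 p and -log10 q of each peak. Read depth is not given in these files, so no counting interval was made. The antibody number differs between labels and methods.

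Peaks on chromosome Y were set aside. TSSs came from GENCODE vM21, and promoters were 1 kb to either side. The strongest promoter peak's rank percentile, log2 width and log2 summit distance (plus 10 bp) were tested with limma 3.58.1 in R 4.3.3 (group means, eBayes with trend, two-sided, Benjamini-Hochberg adjustment over 10777 genes, threshold 0.05), after the rank fit was checked on simulated data. Genes with largest changes were named by rule (3 rises and 3 falls among the listed partners, of which 2 falls passed). Alternatives covered the ranking column, GC trend, windows, peak filters, covariates and left-out libraries. The members and lists were chosen with earlier results of these data known. Trerf1 was not analysed here.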

Additional observations from a re-analysis of the deposited data

How the results depend on the processing

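Of the called members in the other 9 libraries against scramble, the counts for rank moved from 1 to 3 when peaks were ranked by -log10 p (Hdac4, Hdac6 and Hdac10), to 2 with the GC trend removed or without the variance trend, and to 0 with peak number as a covariate. It was also 0 in the exact permutation test, in which the smallest adjusted p of any gene was 0.0538, so that no call was possible. Ranking by -log10 p gave 2 in the CPT1a knockout, 1 in the KAT2a knockout and 1 in acetate against scramble, removal of the GC trend gave 1 in the KAT2a knockout, and omission of the variance trend 1 in the CPT1a knockout. Members called for width numbered 2 with summed and 4 with merged peaks. Leaving out each library in turn gave 0 to 2 called members in the CPT1a knockout, 0 to 1 in the KAT2a knockout, 0 to 1 in acetate against scramble, 0 to 1 in the other 9 libraries against scramble, 0 to 1 for width and 3 to 5 for summit distance. These counts are given without the share of all genes called under each setting, so they cannot be set against a background. The cause of the changes in count was not tested.

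Signs turned for these members. Some differences were close to 0 in the main fit. The Hdac7 rank and the log2 widths of Hdac2 (-0.46) and Hdac7 (-0.21) were farther from it. For rank, Hdac1 was at 2.96 by -log10 p, 17.9 with the peak-number covariate and 0.15 with peaks in at least 6 libraries, Hdac7 at -4.97 with that covariate, and Hdac8 at 8.45 with the GC trend removed (adjusted p = 0.0481), a called change. Width turned with the covariate for Hdac1 (0.69), Hdac2 (0.21), Hdac3 (0.55) and Hdac7 (0.39), with summed peaks for Hdac4 (-0.10) and Hdac5 (-0.026), with merged peaks for Hdac5 (-0.45), and as a rank for Hdac1 (5.55), Hdac3 (11.4), Hdac7 (4.21) and Hdac8 (-0.28). The Hdac6 summit distance was -0.66 with the covariate. With a library left out, Hdac1 rank ran from -9.62 to 5.11, the log2 widths from -0.074 to 0.058 for Hdac1, -0.12 to 0.038 for Hdac3, -0.044 to 0.54 for Hdac4, -0.15 to 0.33 for Hdac5 and -0.0035 to 0.10 for Hdac8, and the log2 summit distances from -0.31 to 0.38 for Hdac6 and -0.61 to 0.14 for Hdac7.

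A peak over the TSS base itself was found in all 12 libraries for 6 members, against 9 within 1 kb, within 2 kb, at a -log10 q of at least 5 or with lists of equal length. The share of all genes is given for the 1 kb window only. Replicate numbers did not pair the libraries (correlation of deviations -0.062 to 0.067 over 18 same-numbered pairs), and the replicate block left the counts at 1 for rank in the other 9 libraries against scramble, 0 for width, 4 for summit distance and 0 in each of the other comparisons. Read depth was not available, so its limit on a missing peak is unknown.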
